A study of Mus musculus with 12 samples.

Results

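Lubricin and 3 genes that accompany it at the cartilage surface were followed across 12 RNA libraries of primary mouse chondrocytes, the cells that make cartilage matrix. The genes were Prg4 (ENSMUSG00000006014), Creb5 (ENSMUSG00000053007), Erg (ENSMUSG00000040732) and Clu (ENSMUSG00000022037). They were taken by symbol, each symbol matched a single Ensembl ID, and they are 4 of the 57010 gene IDs in the count tables. All 4 had enough counts to be tested, as did 14253 IDs in all. The labels give 4 libraries to each of 3 groups. The Control libraries carry no statement of what the cells received. The libraries labelled WT come from cells transfected with a plasmid called wild type, read here as wild-type SIRT5. Those labelled SIRT5F101L come from cells that took up a SIRT5F101L mutant plasmid. SIRT5 is an enzyme that removes malonyl and related groups from lysines. The cells of every group are labelled as wild type in genotype, and neither their age nor the joint they came from is given. Nothing in the labels says that the 4 libraries of a group came from separate cultures or animals, so the p-values measure only the spread between these libraries, which may be technical.

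Prg4 encodes lubricin, also called proteoglycan 4, a long secreted glycoprotein that coats the joint surface and lowers friction between the opposing cartilages. It is made by chondrocytes of the superficial zone, the thin outermost layer of articular cartilage, and by the lining cells of the synovium. CREB5 is a transcription factor of the CREB and ATF family that binds regulatory regions of Prg4 and is needed for its expression in superficial zone cells. ERG is a transcription factor of the ETS family that marks articular progenitors and helps to keep articular chondrocytes from hypertrophy, and it is also a master factor of endothelial cells. Clusterin, the product of Clu, is a secreted chaperone that restrains complement and is abundant in superficial zone cartilage.

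Total counts per library ran from 15095357 to 24242139, so that 3 counts, taken as the floor below which values have no order, equalled 0.120 to 0.195 CPM (counts scaled to library size). Sirt5 itself had few counts. The Control libraries gave it 11, 15, 9 and 16 counts, those labelled WT 9, 9, 8 and 1, and those labelled SIRT5F101L 9, 19, 15 and 10, so no rise with either plasmid was seen. Whether plasmid RNA would be counted under the mouse gene is not given in the sources used here, so the groups stand by their labels and are named by them throughout. The 12 chondrocyte markers all passed the filter, with a summed level of 9232 to 11594 CPM in Control, 2852 to 2967 in WT and 2322 to 2566 in SIRT5F101L, carried by Col2a1, Comp and Col11a1. Others were low in the plasmid groups, such as Snorc at 0.810 and 0.383 CPM (2 counts in its lowest library) and Col9a2 at 4.44 and 2.71. SIRT5F101L replicate 1 differed from the rest of its group in the trend of level with gene length, with a slope of -0.0525 log2 CPM per log2 length against 0.0671 to 0.0854 in replicates 2 to 4. Control slopes ran from -0.0528 to -0.0331 and WT slopes from -0.0324 to 0.0421, so replicate 1 lay with Control and replicates 2 to 4 above every other library. Results that rest on it are given with and without it.

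The coding sequence of Prg4 is shown in part, since its repeat region carries the O-linked sugars that make lubricin slippery and several of the enzymes described below build those sugars. In the longest coding transcript of GENCODE M21 (ENSMUST00000164600.7), the 12-base word AAGGAGCCTGAA occurred 49 times in a coding sequence of 3663 bases. In the longest coding transcripts of Creb5, Erg and Clu, no 12-base word occurred more than 2 times. Coding bases 1240 to 1479 of Prg4 hold 10 copies, in capitals, which mark the word and not the residues that carry sugars:
Prg4 repeat: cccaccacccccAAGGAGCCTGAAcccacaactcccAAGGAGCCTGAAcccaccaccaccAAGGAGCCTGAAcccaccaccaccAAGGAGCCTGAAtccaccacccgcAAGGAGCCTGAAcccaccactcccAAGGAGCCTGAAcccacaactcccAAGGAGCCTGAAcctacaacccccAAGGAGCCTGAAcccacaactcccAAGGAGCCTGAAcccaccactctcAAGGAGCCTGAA

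The promoters of Creb5 are shown because Creb5 was the member with the largest fold difference in WT against Control and its relatives bind known elements. RefSeq (GRCm38.p6) lists 2 start sites for Creb5 and 3 for Erg in the promoter table used, and 2 of the 4 members had an entry. The windows searched ran from 250 bases before to 50 after each start, on both strands, for TGACGTCA (the cAMP response element, CRE), TGACTCA (AP-1) and CCGGAAGT (ETS). The first Creb5 start had a CRE, beginning at position -45, and the second an AP-1 motif, also at -45, with no other match in either window. Below are the 250 bases before each start, on the + strand, with the motif in capitals. The first is chr6:53287053-53287302 and the second chr6:53573124-53573373.
Creb5 start 1: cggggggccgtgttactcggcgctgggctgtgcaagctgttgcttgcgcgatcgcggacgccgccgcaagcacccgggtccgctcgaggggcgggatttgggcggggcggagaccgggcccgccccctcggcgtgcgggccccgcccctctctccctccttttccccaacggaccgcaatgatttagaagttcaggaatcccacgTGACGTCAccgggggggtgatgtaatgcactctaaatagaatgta
Creb5 start 2: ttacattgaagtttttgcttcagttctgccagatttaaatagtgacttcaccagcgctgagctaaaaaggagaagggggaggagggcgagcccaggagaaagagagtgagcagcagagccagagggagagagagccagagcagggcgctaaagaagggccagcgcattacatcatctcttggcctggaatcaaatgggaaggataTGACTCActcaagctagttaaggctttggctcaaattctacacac
Of 32851 promoters of 27025 genes, 588 (1.79%) held the CRE, 1709 (5.2%) the AP-1 motif and 1277 (3.89%) the ETS motif. None of the 3 Erg windows held any of these letters. A match of letters is a description of the window and not a bound site.

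Lubricin transcripts were abundant in all libraries and higher in both plasmid groups than in Control. Prg4 lies on chromosome 1, on the minus strand, over 16.8 kb. It was counted 20681, 20231, 21994 and 23652 times in Control replicates 1 to 4, 31392, 24398, 29099 and 27643 times in WT, and 29402, 27614, 41856 and 31300 times in SIRT5F101L. As TMM-scaled CPM, the level was 1201, 1026, 1171 and 1292 in Control. In WT it was 1549, 1565, 1681 and 1422. In SIRT5F101L it was 1572, 1794, 1679 and 1774. Every plasmid library lay above every Control library, whereas WT and SIRT5F101L overlapped.

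Against Control, Prg4 rose 1.33-fold in WT, from 1173 ± 111 to 1554 ± 106 CPM (SD, n = 4), a log2 difference of 0.41 (SE 0.07, 95% interval 0.25 to 0.56, adjusted p = 8.25e-05 by edgeR's quasi-likelihood test). It rose 1.45-fold in SIRT5F101L, to 1705 ± 102 CPM, a log2 difference of 0.54 (SE 0.07, 95% interval 0.39 to 0.69, edgeR adjusted p = 2.57e-06). Both comparisons share the Control libraries. Between SIRT5F101L and WT the log2 difference was 0.13, with an interval of -0.02 to 0.29, and it did not pass the test (edgeR adjusted p = 0.458). As a percent change, the interval runs from -1.29% to 21.9%. In the libraries of whole cultures used here, a change in the share of a cell type and a change in RNA per cell cannot be told apart. Of the exon bases of Prg4, 4.77% are shared with exons of Tpr on the opposite strand, and 12.2% lie within the span of another coding gene. The strand setting of the counting is not given in the sources used here, so reads on those bases cannot be assigned with certainty.

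**Figure D1:**
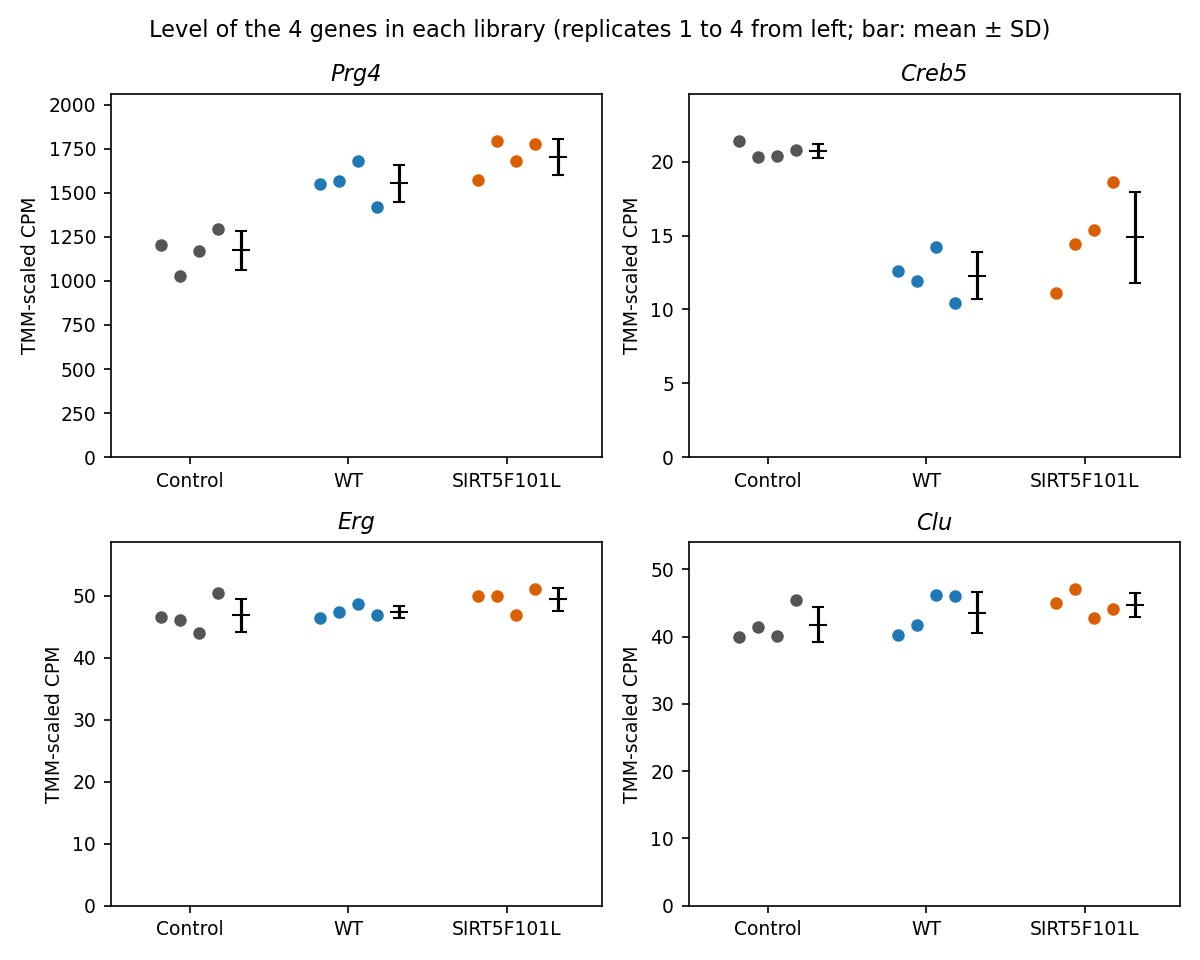
Each panel plots 1 gene, with the TMM-scaled CPM of each library on a linear axis from 0, replicates 1 to 4 from left to right within Control, WT and SIRT5F101L, and the mean ± SD beside them. Prg4 is higher and Creb5 lower in every plasmid library than in every Control library, while the groups overlap for Erg and Clu.

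Calls were common in the comparisons with Control. In WT against Control, 56.8% of tested genes were called at an edgeR adjusted p under 0.05, 28.7% higher and 28.1% lower, and in 53.5% the groups did not overlap. In SIRT5F101L against Control, 60.7% were called, 30.0% higher and 30.7% lower, and 51.3% did not overlap. The members showed 2 of 4 called in each of these comparisons, Prg4 higher and Creb5 lower, and the same 2 without overlap, which is near the background. In SIRT5F101L against WT, 0 of 4 members were called, beside 6 of 14253 genes (0.0421%), with 1701 genes at an unadjusted p under 0.05. DESeq2 also called 0 members there, and Creb5 alone had an unadjusted p under 0.05 in edgeR's fit across all genes. In 4.02% of genes the plasmid groups did not overlap, and none of the 4 members was among them. The median log2 difference of all tested genes was -0.01, -0.02 and 0.00 in the 3 comparisons.

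**Figure D2:**
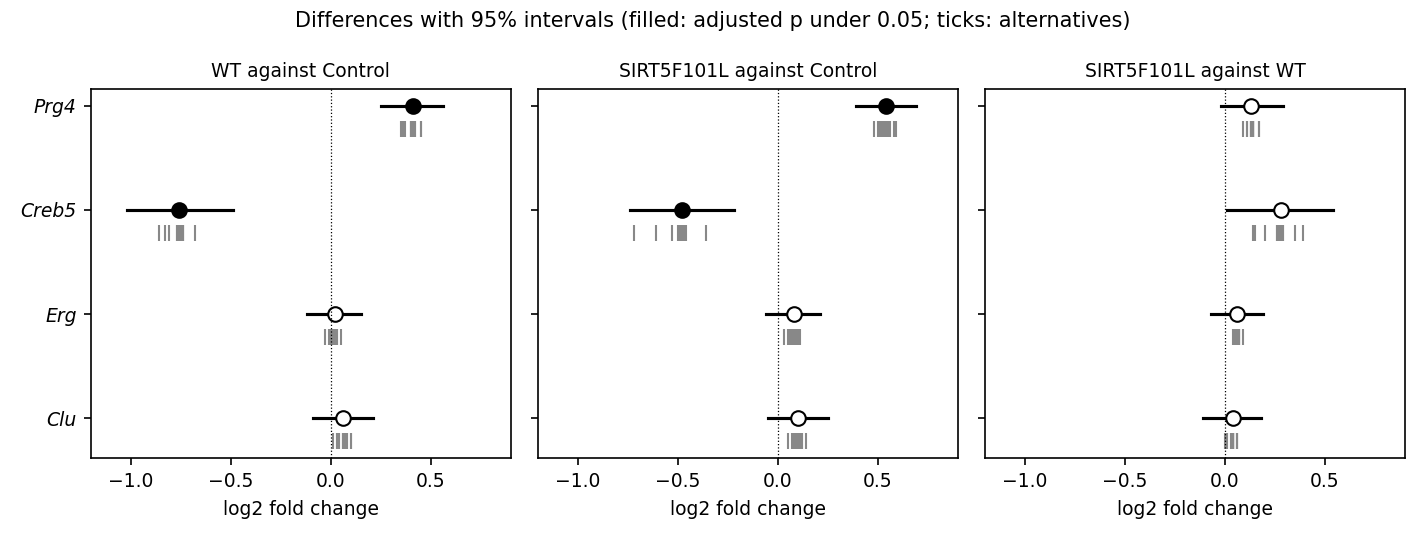
Each panel plots 1 comparison, with the log2 fold change on the x axis and the 4 genes on the y axis, points with 95% intervals from edgeR, filled where the adjusted p was under 0.05, and grey ticks for the value under each alternative analysis. Prg4 (0.41 and 0.54) and Creb5 (-0.76 and -0.48) lie away from 0 against Control, and the intervals of Erg and Clu span 0 in every panel.

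Lubricin moved against the main cartilage collagen. The ratio of Prg4 to another gene within a library does not depend on how libraries are scaled, and 2 matrix genes served as the denominator: Col2a1, the chain of type II collagen, and Acan, the core protein of aggrecan. They were chosen with earlier results for these genes known. Counts of Prg4 per count of Col2a1 were 0.167, 0.180, 0.170 and 0.183 in Control, 0.972, 0.941, 0.971 and 0.850 in WT, and 1.16, 1.48, 1.34 and 1.25 in SIRT5F101L. The 3 groups did not overlap. Col2a1 thus gave more counts than Prg4 in every Control and WT library and fewer in every SIRT5F101L library. Per kb of exon, the mean ratio was 0.378 in Control, 2.02 in WT and 2.82 in SIRT5F101L.

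The ratio to Col2a1 was 5.34-fold higher in WT than in Control and 7.44-fold higher in SIRT5F101L, in an exact 2-sided permutation test (p = 0.0286 each, adjusted p = 0.0343 over 6 ratio tests). It was also 1.39-fold higher in SIRT5F101L than in WT (log2 difference 0.48, exact permutation p = 0.0286, adjusted p = 0.0343). The smallest p that 4 libraries against 4 can give is 0.0286. Col2a1 itself went from 6719 ± 691 CPM in Control to 1665 ± 56.2 in WT and 1312 ± 95.2 in SIRT5F101L, and its own difference between the plasmid groups did not pass the test (log2 -0.34, edgeR adjusted p = 0.125). Without SIRT5F101L replicate 1 it was -0.36 and passed.

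Against aggrecan the pattern differed between the plasmid groups. Counts of Prg4 per count of Acan were 8.47, 9.24, 8.86 and 8.76 in Control, 8.13, 8.84, 8.93 and 7.79 in WT, and 11.4, 13.0, 11.9 and 11.5 in SIRT5F101L. Control and WT overlapped, and every SIRT5F101L library lay above both. The ratio was 1.42-fold higher in SIRT5F101L than in WT and 1.35-fold higher than in Control (exact permutation p = 0.0286 each, adjusted p = 0.0343), and the difference between WT and Control was not detectable (log2 -0.07, exact permutation p = 0.286). Acan stood at 133 ± 16.0 CPM in Control, 185 ± 6.01 in WT and 143 ± 8.08 in SIRT5F101L. In WT it had risen with Prg4 (log2 0.47, edgeR adjusted p = 1.78e-05). In SIRT5F101L its difference from Control did not pass (log2 0.10, adjusted p = 0.243), nor did that from WT (log2 -0.37, adjusted p = 0.0942), although without SIRT5F101L replicate 1 the latter was -0.35 and passed.

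**Figure D3:**
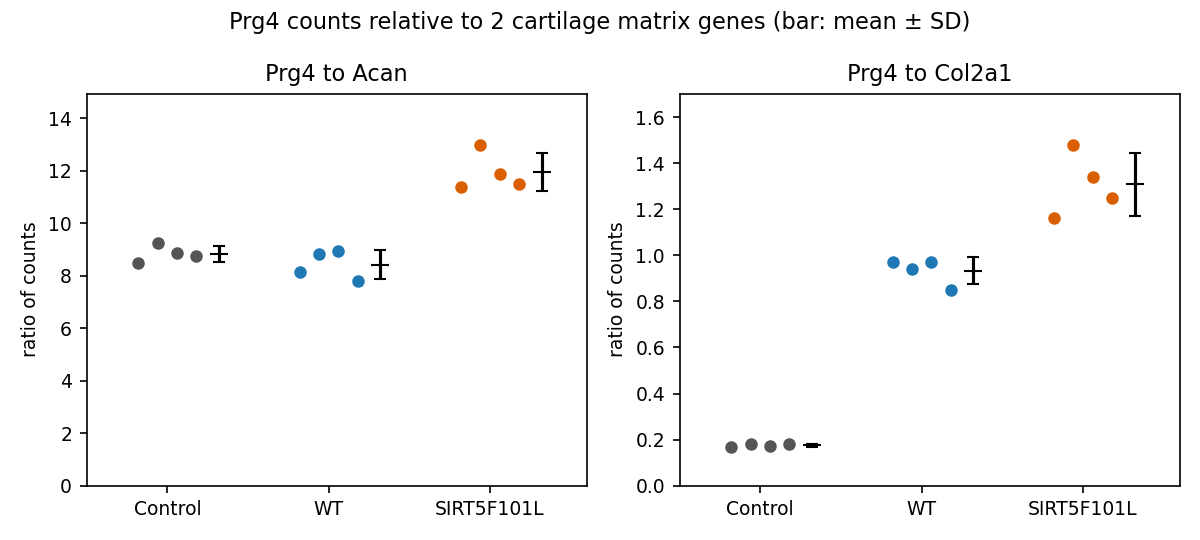
Counts of Prg4 divided by counts of Acan (left) and of Col2a1 (right) in each library, on linear axes from 0, with the mean ± SD of each group. The ratio to Acan is 11.4 to 13.0 in SIRT5F101L and 7.79 to 9.24 elsewhere, and the ratio to Col2a1 steps up from 0.183 or less in Control to at least 0.850 in WT and 1.16 in SIRT5F101L.

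Creb5, the activator of Prg4, moved the other way from Prg4 in both plasmid groups. The gene spans 413.1 kb of chromosome 6, on the plus strand. Its counts were 369, 400, 383 and 381 in Control, 255, 186, 245 and 203 in WT, and 207, 221, 383 and 328 in SIRT5F101L. In CPM these were 21.4, 20.3, 20.4 and 20.8 in Control. In WT they were 12.6, 11.9, 14.2 and 10.4, and in SIRT5F101L 11.1, 14.4, 15.4 and 18.6. The Control libraries lay within a narrow band above all others. The SIRT5F101L libraries were the most spread of any member in any group, with a coefficient of variation of 20.9% against 2.52% in Control, and their range overlapped that of WT.

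Creb5 fell by 40.8% in WT, from 20.7 ± 0.522 to 12.3 ± 1.54 CPM (n = 4), a log2 difference of -0.76 (SE 0.13, 95% interval -1.02 to -0.49, edgeR adjusted p = 3.39e-05). It fell by 28.4% in SIRT5F101L, to 14.8 ± 3.10 CPM, a log2 difference of -0.48 (SE 0.12, 95% interval -0.74 to -0.22, edgeR adjusted p = 0.00220). Between SIRT5F101L and WT the log2 difference was 0.28 (interval 0.01 to 0.54), which did not pass after adjustment (edgeR adjusted p = 0.409). Without SIRT5F101L replicate 1, the library with the lowest Creb5 of its group, that difference was 0.39 and passed (edgeR adjusted p = 0.0136, range over all alternatives 0.0136 to 0.749). It was 0.15 without SIRT5F101L replicate 4 and 0.14 with each library's trend with gene length removed, and passed in neither case. The difference between SIRT5F101L and Control was -0.36 without replicate 1 of SIRT5F101L and -0.72 with the length trend removed, and passed in both. Removing the trend was added after the data were seen.

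No difference of Erg, the ETS factor of articular chondrocytes, passed the test. It lies on chromosome 16, on the minus strand, over 227.4 kb. Its counts were 802, 909, 827 and 924 in Control, 940, 737, 843 and 912 in WT, and 933, 768, 1166 and 900 in SIRT5F101L. In CPM these were 46.6, 46.1, 44.0 and 50.5 in Control, 46.4, 47.3, 48.7 and 46.9 in WT, and 49.9, 49.9, 46.8 and 51.0 in SIRT5F101L. All 3 groups overlapped. The log2 difference was 0.02 in WT against Control (interval -0.12 to 0.15, edgeR adjusted p = 0.852), 0.08 in SIRT5F101L against Control (-0.06 to 0.21, adjusted p = 0.310) and 0.06 in SIRT5F101L against WT (-0.07 to 0.19, adjusted p = 0.706). Against Control, the intervals as percent changes run from -7.85% at the lowest to 15.7% at the highest. The sign of the WT difference turned under upper-quartile scaling (-0.03).

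Because ERG also marks blood vessels, endothelial markers were read beside it. Of 10 markers, 6 were tested and 1 rose in each plasmid group, Vwf, which encodes von Willebrand factor (log2 0.54 in WT and 0.65 in SIRT5F101L, edgeR adjusted p = 0.0199 and 0.0054). The summed level of the 10 was 7.49 to 7.91 CPM in Control, 8.08 to 10.6 in WT and 8.45 to 10.7 in SIRT5F101L. Of the 4 markers not tested, Emcn reached 16 counts in a library, Tie1 6, and Egfl7 and Cldn5 1. The part of endothelial cells in the level of Erg was not tested.

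No difference of Clu, which encodes clusterin, passed either. It lies on chromosome 14, on the plus strand, over 13.1 kb. Its counts were 687, 817, 752 and 833 in Control, 817, 650, 800 and 895 in WT, and 841, 724, 1064 and 778 in SIRT5F101L. In CPM these were 39.9, 41.4, 40.1 and 45.5 in Control, 40.3, 41.7, 46.2 and 46.0 in WT, and 45.0, 47.0, 42.7 and 44.1 in SIRT5F101L. The groups overlapped, with the highest Control library above 2 of the WT and 3 of the SIRT5F101L libraries. The log2 difference was 0.06 in WT (interval -0.09 to 0.21, edgeR adjusted p = 0.477), 0.10 in SIRT5F101L (-0.05 to 0.25, adjusted p = 0.244) and 0.04 between the plasmid groups (-0.11 to 0.18, adjusted p = 0.865). As percent changes against Control, the intervals run from -5.84% to 18.7%.

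Levels of different genes were compared per kb of exon, which assumes that reads were counted over exons. The feature counted is not given in the sources used here, and with introns included the levels, ranks and order below, and the ratios per kb above, would differ. Of 854 autosomal coding genes lying wholly within the span of another coding gene, 771 (90.3%) were listed at 0 in all libraries, against 15.8% of 19862 others. What this says of the feature counted was not tested. Prg4 was the highest of the 4, at 274 ± 25.8 CPM per kb in Control, 363 ± 24.8 in WT and 398 ± 23.8 in SIRT5F101L. Erg followed at 13.5 ± 0.775, 13.7 ± 0.286 and 14.3 ± 0.527, and Clu at 12.1 ± 0.760, 12.7 ± 0.876 and 13.0 ± 0.532. Creb5 was the lowest, at 0.829 ± 0.0209, 0.491 ± 0.0615 and 0.593 ± 0.124 CPM per kb. The order of Erg and Clu depends on the length used. With the longest coding transcript in place of all exons, Clu stood at 23.1 ± 1.44 in Control against 14.4 ± 0.827 for Erg, and Creb5, whose exons sum to 25.02 kb, rose to 2.62 ± 0.0660 and was still the lowest.

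Among 14080 genes ranked by CPM per kb, Prg4 was at rank 166 from the top in Control, 94 in WT and 79 in SIRT5F101L. Col2a1 went from rank 45 to 232 and 280, and Comp, which encodes cartilage oligomeric matrix protein, from 48 to 644 and 697. In Control both matrix genes stood above Prg4 per kb, and in the plasmid groups Prg4 stood above both. Erg (ranks 3491, 3512 and 3335) and Clu (3816, 3717 and 3596) held their places, and Creb5 (11089, 11978 and 11750) had 21.2% of genes below it in Control, 14.9% in WT and 16.5% in SIRT5F101L.

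**Figure D4:**
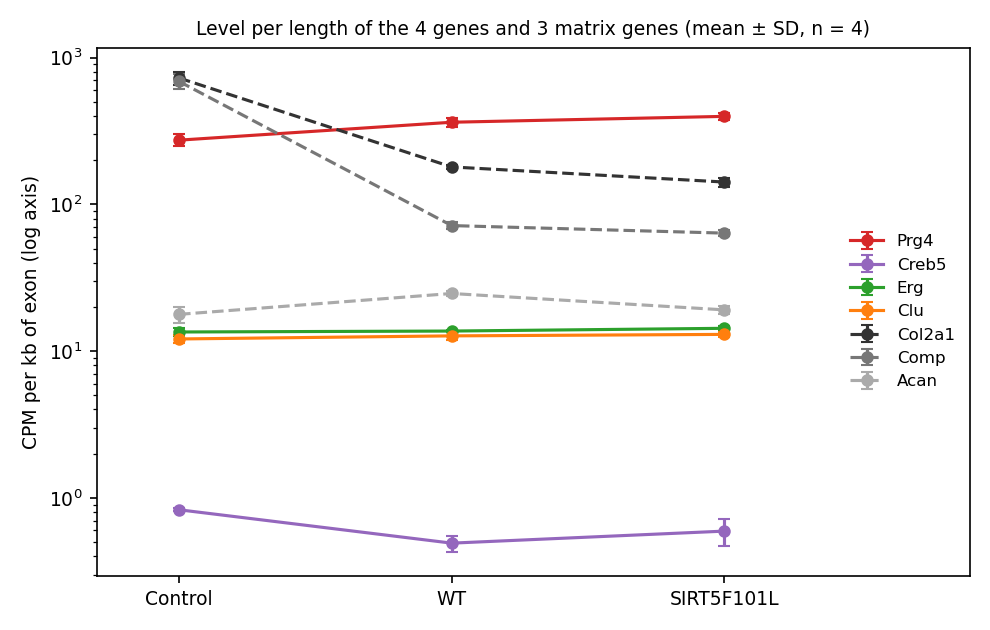
Mean ± SD (n = 4) of CPM per kb of exon on a log axis for the 4 genes (solid lines) and 3 matrix genes (dashed lines) in Control, WT and SIRT5F101L. The line of Prg4 goes from 274 to 398 and crosses those of Col2a1 (727 to 142) and Comp (689 to 63.7), while Erg and Clu run flat near 13 and Creb5 lies lowest.

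Likeness of profile was measured as the root mean square difference of log2 CPM over the 12 libraries, each gene centred on its own mean, among 9789 genes of at least 5 CPM with a symbol other than a predicted gene. The nearest to Prg4 were Fam222b (0.067), Fam126a (0.071) and Relch (0.072), and 105 genes lay within 0.1. Nearest to Erg were Wdr33 (0.042), Csnk2a1 (0.048) and Prpsap1 (0.049), with 496 genes within 0.1. Csnk2a1 (0.046), Clk3 (0.055) and Erg itself (0.056) were nearest to Clu, with 288 genes within 0.1. For Creb5 the nearest were Ctdspl (0.107), L3mbtl3 (0.108) and Mcc (0.108), and no gene lay within 0.1. Between members, the distance was smallest for Erg and Clu (0.056) and largest for Prg4 and Creb5 (0.543). The libraries share their depth and scaling across genes, and these distances are descriptions.

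Genes around lubricin were read from lists, beginning with its inputs. Each list's count of calls stands beside the 56.8% and 60.7% of all tested genes called in WT and SIRT5F101L against Control, and describes the list only. TGF-beta is the best known inducer of Prg4. Its list held 14 genes, for ligands, receptors, SMAD proteins (the inhibitory Smad7 among them) and the latent TGF-beta binding proteins Ltbp1, Ltbp2 and Ltbp3. Of these, 6 rose and 6 fell in WT, and 7 rose and 6 fell in SIRT5F101L, with a median log2 difference of 0.04 and 0.13. Tgfb2, a ligand, fell from 50.4 ± 3.30 to 9.38 ± 1.04 CPM in WT (log2 -2.43, edgeR adjusted p = 3.58e-13) and by 2.26 on the log2 scale in SIRT5F101L (adjusted p = 7.77e-13). Tgfbr1, a signalling receptor, rose from 37.9 ± 3.36 to 115 ± 10.8 CPM (log2 1.60, adjusted p = 2.28e-12) and by 1.75 in SIRT5F101L (adjusted p = 5.23e-13). Receptors went both ways, since Tgfbr2 and Acvrl1 fell in both plasmid groups.

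EGFR signalling maintains superficial chondrocytes and their lubricin. Of its 8 genes, 6 rose and 0 fell in WT and 7 rose and 0 fell in SIRT5F101L, with a median of 2.15 in each. Areg and Epgn, with mean levels of 0.225 and 0.138 CPM in Control, lay near the floor there and passed the filter through the plasmid groups. Over the 5 genes that averaged 5 CPM or more across all libraries, 4 rose and 0 fell, with medians of 1.73 and 1.74. Those that rose included the ligand Ereg, which went from 25.8 ± 2.73 to 215 ± 10.1 CPM in WT (log2 3.06) and 261 ± 26.6 in SIRT5F101L (3.33). The feedback inhibitor Errfi1 rose in step, from 86.6 ± 1.96 to 781 ± 4.77 and 809 ± 20.7 CPM (log2 3.17 and 3.22, edgeR adjusted p = 6.62e-20 and 6.47e-20).

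Of 15 transcription factors and cAMP pathway genes placed upstream of Prg4, 9 rose and 3 fell in WT and 10 rose and 3 fell in SIRT5F101L, with medians of 0.23 and 0.34. Crem, a cAMP-responsive factor, rose from 11.8 ± 0.948 to 59.8 ± 3.78 CPM in WT (log2 2.34) and 61.2 ± 4.26 in SIRT5F101L (2.37, edgeR adjusted p = 2.12e-15). Nfatc1, a calcineurin-dependent transcription factor, rose by 1.55 and 1.60 on the log2 scale (adjusted p = 1.44e-13 and 7.40e-14). Of 6 tested genes of the CREB5 family and its AP-1 partners, Creb5 included, 0 rose and 3 fell in WT (Creb5, Jund and Fos). In SIRT5F101L the same 3 fell and 1 rose, Atf2. Fos, a subunit of AP-1, fell from 138 ± 18.4 to 82.1 ± 6.85 CPM in WT, a log2 difference of -0.75, which was also the value in SIRT5F101L (edgeR adjusted p = 1.20e-07 and 1.12e-07). Without SIRT5F101L replicate 1, Junb was called lower in SIRT5F101L as well. Atf7 was too low to be tested.

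Cytokines known to lower lubricin were mostly near the floor. Il1a, Il1b, Tnf and Il17a were not tested, with at most 19 counts in any library. Of 3 tested, Il6 rose from 1.67 ± 0.336 to 75.5 ± 4.34 CPM in WT (log2 5.50) and 94.2 ± 4.0 in SIRT5F101L (5.82, edgeR adjusted p = 1.12e-19). Il1r1, the signalling receptor for interleukin 1, fell by 0.65 and 0.43 on the log2 scale (adjusted p = 6.12e-06 and 0.000528), and Tnfrsf1a did not pass in either comparison. Without SIRT5F101L replicate 1, Tnf was also tested, and Tnf and Tnfrsf1a were both called lower in SIRT5F101L than in Control.

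Among joint surface genes beyond the 4 members, more fell than rose, but their summed level in each plasmid group overlapped that in Control. The sum ran from 3463 to 3747 CPM in Control, 3482 to 3652 in WT and 3734 to 4025 in SIRT5F101L. Of 18 superficial zone and joint surface genes, 5 rose and 11 fell in WT and 5 rose and 10 fell in SIRT5F101L, with medians of -0.73 and -0.80 beside -0.01 and -0.02 for all tested genes. Some passed the filter through a single group, and over the 14 that averaged 5 CPM or more, 4 rose and 8 fell in each plasmid group, with medians of -0.57 and -0.65. Abi3bp, a matrix protein of superficial cartilage, fell from 761 ± 23.5 to 33.1 ± 2.40 CPM in WT (log2 -4.52) and 42.5 ± 4.36 in SIRT5F101L (-4.16, edgeR adjusted p = 9.14e-20 and 1.95e-19). Dkk3, a secreted Dickkopf family member, fell from 1005 ± 67.6 to 110 ± 4.86 and 115 ± 6.16 CPM (log2 -3.19 and -3.12). The others that fell in both were Vit, Cilp, Cilp2, Thbs4, Osr1, Osr2, Sparcl1 and Sfrp2, and Col22a1 passed in WT (log2 -1.14, edgeR adjusted p = 0.0364) but not in SIRT5F101L (-0.93, adjusted p = 0.0702). Those that rose in both were Gdf5, Wnt9a, Cd44, Dcn and Igfbp5. Tnc and Notch1 passed in neither. Gdf5 stood near the floor in Control, at 0.211 ± 0.213 CPM.

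ETS factors were read beside Erg, from a list of 10 chosen by hand. Of 8 tested, 5 rose and 1 fell in WT and 6 rose and 1 fell in SIRT5F101L, with medians of 0.86 and 0.88. Etv1 rose from 3.14 ± 0.587 to 38.0 ± 4.05 CPM in WT (log2 3.59) and 44.8 ± 5.36 in SIRT5F101L (3.82, edgeR adjusted p = 1.47e-15). Ets1 rose by 1.53 and 1.61 on the log2 scale (adjusted p = 1.39e-13 and 5.17e-14). Besides Erg, Fli1 did not pass in WT (log2 0.30, adjusted p = 0.126). Fev and Elf3 were not tested.

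Clusterin receptors and complement genes were read beside Clu. Of 10 tested, 6 rose and 3 fell in WT and 6 rose and 2 fell in SIRT5F101L. Lrp2 and Cfi, both among those that fell in WT, had 1 count in their lowest library. Over the 8 that averaged 5 CPM or more, 6 rose and 1 fell in each plasmid group. C3, the central complement component, rose from 3.22 ± 0.499 to 70.3 ± 5.16 CPM in WT (log2 4.45) and 79.5 ± 1.41 in SIRT5F101L (4.62, edgeR adjusted p = 1.02e-18). Cd55, which protects cells from complement, rose by 1.33 and 1.49 on the log2 scale (adjusted p = 2.23e-11 and 3.40e-12).

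Genes that finish, partner or cut lubricin were read next. Of 10 tested O-glycosylation enzymes, 7 rose and 2 fell in each plasmid group, with medians of 0.65 and 0.60. C1galt1c1, also on the list, was listed at 0 in all libraries and was not tested. C1galt1, which builds the core 1 sugar on proteins such as lubricin, rose from 78.5 ± 2.51 to 266 ± 14.9 CPM in WT (log2 1.76) and 298 ± 18.9 in SIRT5F101L (1.92, edgeR adjusted p = 7.74e-16). St3gal1, which caps that sugar with sialic acid, rose by 1.78 and 1.81 on the log2 scale (adjusted p = 8.68e-15 and 6.57e-15). The repeat region printed above is among the many substrates of this pathway.

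Of 13 tested hyaluronan and boundary lubrication genes, 8 rose and 3 fell in each plasmid group, with medians of 0.73 and 0.46. Cd44, the hyaluronan receptor that also binds lubricin, rose from 220.0 ± 7.12 to 780.0 ± 36.2 CPM in WT (log2 1.82) and 802 ± 65.8 in SIRT5F101L (1.86). Comp, a lubricin-binding matrix protein, fell from 2044 ± 234 to 213 ± 10.9 and 189 ± 8.19 CPM (log2 -3.26 and -3.44, edgeR adjusted p = 1.28e-17 and 5.77e-18).

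The list of proteases reported to cleave lubricin also held the plasminogen activators Plau and Plat and the urokinase receptor Plaur. Of its 9 tested genes, 4 rose and 4 fell in WT and 4 rose and 5 fell in SIRT5F101L. The 4 that rose were Mmp3, Plau, Plat and Plaur. Mmp3, stromelysin 1, rose from 16.3 ± 1.55 to 1534 ± 147 CPM in WT (log2 6.55) and 1882 ± 163 in SIRT5F101L (6.85, edgeR adjusted p = 1.90e-20). Plau, the urokinase plasminogen activator, rose by 1.92 and 1.90 on the log2 scale (adjusted p = 4.06e-16 and 4.30e-16). The 6 not tested, Ctsg, Elane, Mmp1a, Mmp7, Mmp9 and Plg, had at most 11 counts in any library.

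Genes of the deep zone and of hypertrophy, the opposite end of the cartilage, also fell more often than they rose. Of 10 tested, 3 rose and 5 fell in each plasmid group, with medians of -0.74 and -0.85. Over the 7 that averaged 5 CPM or more, 2 rose and 4 fell, with medians of -2.12 and -1.84. Spp1, osteopontin, rose from 1937 ± 80.3 to 14554 ± 1403 CPM in WT (log2 2.91) and 15440 ± 1061 in SIRT5F101L (2.99). Mmp13, the collagenase of hypertrophic cartilage, rose by 2.56 and 2.82 on the log2 scale (edgeR adjusted p = 1.67e-16 and 3.38e-17). Runx2 passed in neither comparison and was called higher in SIRT5F101L without replicate 1 of that group. Col10a1 and Chad were listed at 0 in all libraries. Each lies wholly within the span of another coding gene, where 90.3% of genes were listed at 0, so a 0 there does not show that the gene was silent.

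**Figure D5:**
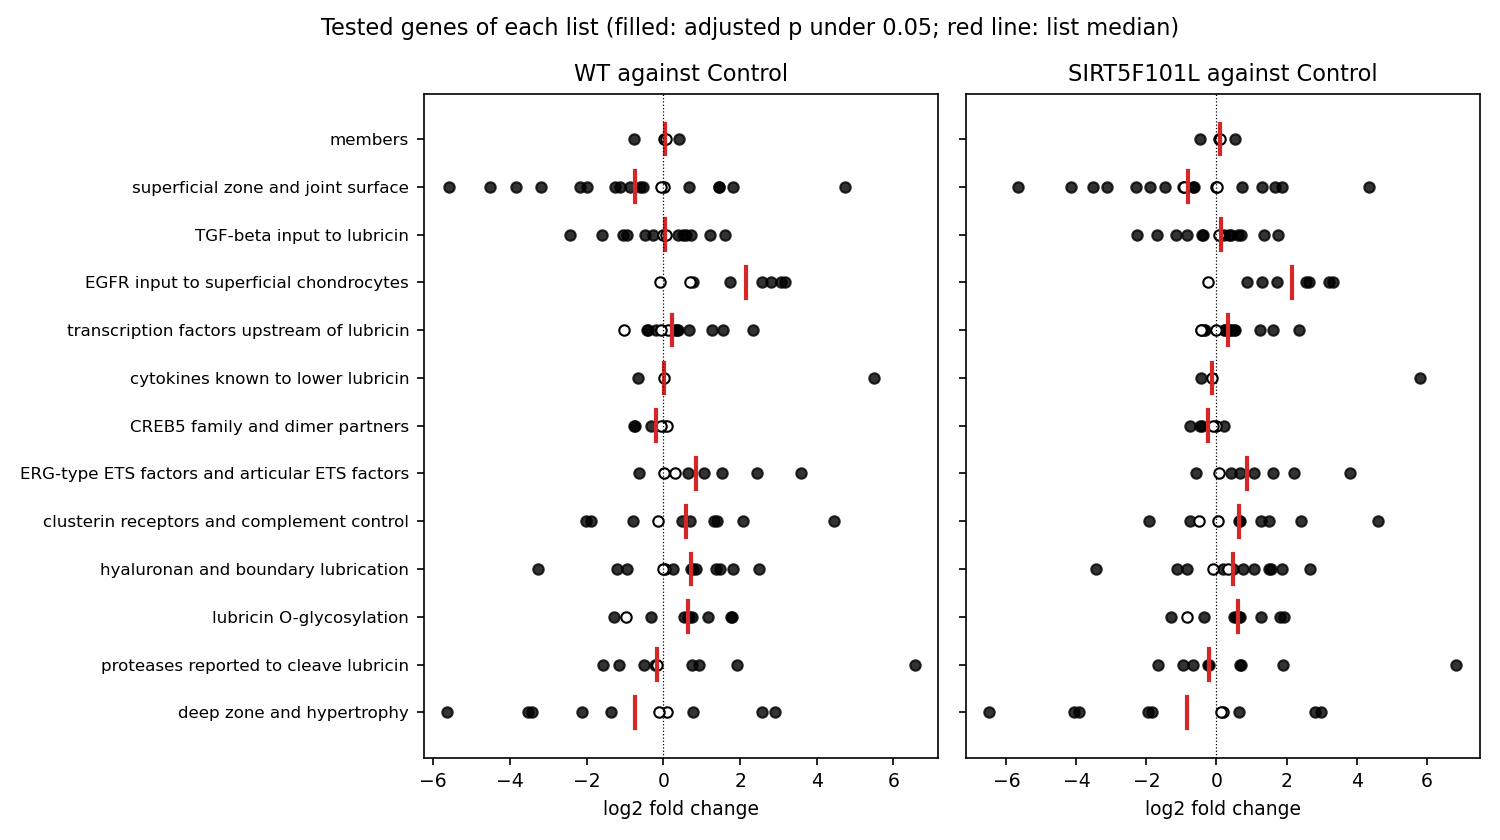
Each point is a tested gene of the list named on the y axis, with its log2 fold change against Control on the x axis for WT (left) and SIRT5F101L (right), filled where the edgeR adjusted p was under 0.05, and a red line at the list median. The superficial zone list has its median at -0.73 and -0.80, the EGFR list at 2.15 in both panels, and the 4 members lie between -0.76 and 0.54.

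Markers of cells that could accompany chondrocytes moved as well. The synovial lining also makes lubricin, and of 5 lining markers 3 rose and 0 fell in each plasmid group, Cd55, Clic5 and Hbegf, while Htra4 and Tspan15 did not pass. Their summed level was 110 to 118 CPM in Control, 308 to 333 in WT and 316 to 343 in SIRT5F101L. Their part in the level of Prg4 was not tested. Of 8 tested fibroblast markers, 3 rose and 5 fell in each, with sums of 17345 to 20539, 6297 to 7114 and 6181 to 7088 CPM. The sums were carried by the collagen genes Col1a1 and Col3a1, which fell, as did Thy1, Fap and Dpp4, while Pdpn, Pdgfra and Cd34 rose. Over the 7 that averaged 5 CPM or more, 3 rose and 4 fell. Among 7 tested macrophage markers, 1 rose (Cd14) and 6 fell, with sums of 177 to 208, 130 to 150 and 139 to 179 CPM and Itgam listed at 0. Some were low in the plasmid groups, such as Ptprc, with 5 counts in its lowest library. Over the 4 that averaged 5 CPM or more, 1 rose and 3 fell in each plasmid group. The tenocyte marker Mkx rose slightly, by 0.26 and 0.31 on the log2 scale (edgeR adjusted p = 0.0199 and 0.00567), and Scx and Tnmd were listed at 0. Scx lies within the span of Bop1, so that its 0 does not show absence. Whether Tnmd and Itgam were silent was not tested. Of the 12 chondrocyte markers, 2 rose and 10 fell in WT, and 1 rose and 10 fell in SIRT5F101L.

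Between SIRT5F101L and WT, no gene of the lists around lubricin was called, and of all marker genes only Col11a2, a chain of type XI collagen, was called lower in SIRT5F101L (log2 -0.63, edgeR adjusted p = 0.0339). Without SIRT5F101L replicate 1, 2213 of 14528 genes tested (15.2%) were called in that comparison in place of 6, and without any other single plasmid library 0 were. Against Control, leaving that library out kept each list's count of calls within 2 of the value given.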

How the data were processed

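Poly(A) RNA was sequenced as 150 bp paired-end reads, per the labels' protocols. The authors deposited unnormalized read counts for Ensembl gene IDs. The submitters' processing notes list FastQC 0.11.9, HISAT2 2.2.1, HTSeq 2.0.2 and DESeq2 1.38.3 and the build GRCm39 (mm39), without their roles or order. The annotation release and strand setting are not given in the sources used here. Symbols, exon lengths and overlaps came from GENCODE M21 and promoters from RefSeq, both of GRCm38, matched by ID or symbol.

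Libraries were grouped by their treatment label, and replicate numbers follow the order of deposition and pair nothing. No 2 of the 12 libraries were identical, and within groups they differed by 2.56 to 8.92 times the sampling noise. edgeR 4.0.16 (R 4.3.3) was fitted to all 12 libraries with TMM scaling, its default filter, a mean per group and 9 residual degrees of freedom. Genes were called at a Benjamini-Hochberg adjusted p under 0.05 over 14253 genes, in 2-sided tests. CPM are TMM-scaled. The standard error is the log2 fold change over the root of F. The analysis was tested on simulated data. Count ratios used an offset of 0.5 and exact permutation tests over 70 arrangements. A count floor of 3 covers counting error only.

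The members, lists and tests were chosen with earlier results of these data known. Besides the members, the named genes are the 2 of each list with the lowest adjusted p in WT against Control that were called against Control in both groups, any list gene called between the plasmid groups, and the 3 genes nearest to each member. Other names were added after values were seen. Alternatives were RLE and upper-quartile scaling, other filters, DESeq2 1.42.0, fits of 8 libraries and leaving out each library of the groups compared. Removal of the length trend, the length of the longest coding transcript and list counts without SIRT5F101L replicate 1 or at a mean of at least 5 CPM were added after seeing the data.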

Additional observations from a re-analysis of the deposited data

Results flagged for a closer look

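Of 24 groups of 4 values screened for a library far from the others, 1 was marked, where chance would mark about 1 in 20, or 1.20. The slope of log2 CPM on log2 exon length was -0.0525 in SIRT5F101L replicate 1 and 0.0671 to 0.0854 in the other 3 libraries of that group, a gap of 0.868 of the range against a limit of 0.829. Control libraries had slopes of -0.0528 to -0.0331 and WT libraries of -0.0324 to 0.0421. This library also held the lowest Creb5 (11.1 CPM) and the lowest Prg4 (1572 CPM) of its group.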

How the results depend on the processing

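Of 234 recomputed differences of the members and ratios, 231 kept their direction and their side of the threshold, and of 90 recomputed counts of calls 77 lay within 1.5 times the reported count. Prg4 ran from 0.35 to 0.45 in WT against Control, 0.48 to 0.59 in SIRT5F101L against Control and 0.09 to 0.17 between the plasmid groups. In 5 of the 6 ratio tests the groups did not overlap, so their p, at its smallest, says nothing of stability. Erg in WT against Control turned to -0.03 under upper-quartile scaling and ran from -0.01 to 0.05 when each Control or WT library was left out. The genes called between SIRT5F101L and WT numbered 6, and 354 with no filter beyond 1 count, 19 with the length trend removed (added after seeing the data), 43 with DESeq2, 2 with only the 8 libraries compared, and 0 to 2213 when each WT or SIRT5F101L library was left out, with 2213 without SIRT5F101L replicate 1. The members called there then ran from 0 to 1, and Creb5 from 0.15 to 0.39. The cause was not tested. In SIRT5F101L against Control, Creb5 ran from -0.72 to -0.36. No paired analysis was possible because the replicate numbers follow the order of deposition and the labels tie no library of a group to a library of another. Upper-quartile scaling moved the median of all genes to -0.06 in both comparisons with Control. Depth limits Creb5 most among the members, with 186 to 400 counts a library.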

Other observations

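Leaving out SIRT5F101L replicate 1, a step chosen after seeing the data, brought 2213 of 14528 tested genes (15.2%) past the edgeR threshold between SIRT5F101L and WT. In the superficial zone list 2 of 18 were then called, Abi3bp and the small proteoglycan gene Dcn, and in the TGF-beta list 3 of 14, Tgfbr1, Tgfbr3 and Smad4, each higher in SIRT5F101L. The EGFR list had 1 of 8 (Ereg), the upstream transcription factors 1 of 15 (Foxo1), the ETS factors 1 of 8 (Etv1) and the O-glycosylation enzymes 1 of 10 (C1galt1), all higher. Also higher were 2 of 6 in the CREB5 family (Creb5 and Atf2) and 2 of 4 cytokine genes (Il1r1 and Il6). The hyaluronan list had 1 of 13, Lgals3, which was lower. Of 9 genes of the protease list 2 were higher and 3 lower, the latter including the receptor gene Plaur. Of 10 deep zone genes 2 were higher and 1 lower. Among 12 chondrocyte markers 5 were lower, Col2a1, Acan, Col9a1, Col9a2 and Col11a2. These calls rest on 3 SIRT5F101L libraries against 4 labelled WT.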
